A study of Mus musculus with 7 samples.

Results

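The proteasome genes of mouse gastrocnemius, the fast calf muscle, were described by 49 genes out of the 21487 in the table of counts. They were chosen by name: the symbols of proteasome alpha, beta, ATPase, non-ATPase, activator, inhibitor and assembly-chaperone genes (Psma, Psmb, Psmc, Psmd, Psme, Psmf and Psmg), with the ubiquitin receptor Adrm1 and the assembly factor Pomp added. The naming rule uses no measured value. All 7 libraries came from gastrocnemius in which atrophy had been induced by immobilization. The 4 knockout libraries came from mice lacking DJ-1 (gene Park7, an oxidative-stress sensor) in skeletal muscle only, labelled MPARK7KO, and the 3 control libraries from flox mice that the labels call WT. Both groups were immobilized and no library from a free limb was analysed here, so each comparison is knockout minus control within immobilized muscle. The sources used here do not give the promoter that drives the deletion, the age and sex of the mice or whether each library is a separate animal, so each p-value measures the spread between libraries, which may be technical.

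The proteasome is the cell's main protease for proteins tagged with ubiquitin. Its 20S core is a barrel of alpha and beta rings that holds the cutting sites, and its 19S cap, made of a ring of ATPases and a set of non-ATPase subunits, recognises ubiquitin, removes it and threads the protein into the core. In atrophying muscle, ubiquitin ligases and the proteasome carry out much of the breakdown of the contractile proteins. Interferon induces immunoproteasome forms of the cutting subunits, which replace the usual ones and favour the peptides shown on the cell surface. These forms are abundant in blood-derived cells and low in muscle fibres.

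Library totals ran from 24458343 to 26389010 counts. Levels are given as CPM, the counts scaled to a common library size, on normalized library sizes, and 13409 genes had enough counts to be tested, of which 48 were proteasome genes. A gene was called when its Benjamini-Hochberg adjusted p, over all genes tested, was under 0.05 in edgeR's quasi-likelihood test. Park7 itself was 245 ± 18.8 CPM (SD, n = 3) in the controls and 37.3 ± 2.94 CPM (SD, n = 4) in the knockouts, and the groups were far apart. Markers of muscle fibres summed to between 60303 and 75435 CPM in every library, and none of the 6 was called.

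Most proteasome genes had slightly higher means in the knockouts, the immunoproteasome genes had lower ones, and few single genes passed the test. In the 19S cap, 4 of the 15 non-ATPase genes (Psmd8, Psmd1, Psmd6 and Adrm1) were called higher, and in the core 1 of 7 tested alpha genes (Psma5). Of the 5 immunoproteasome genes, Psmb10 and Psme1 fell. In all, 5 of the 48 genes were called higher (10.4%), where 6.67% of all genes tested were, and 2 were called lower (4.17%), where 8.23% of all genes tested were. All 4 knockouts lay above all 3 controls for 12 of the 48 (25.0%), against 14.0% of all genes, and below them for 2 (4.17%), against 14.8%. The log2 fold change was above zero for 41 of the 48 and for 50.7% of all genes, with a median of 0.13 for the 48 and 0.01 for all genes.

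Among the 35 constitutive 20S and 19S genes tested, 34 had a log2 fold change above zero, with a median of 0.16. Scaling the libraries by their upper quartile moved the median of all genes to -0.04, and 30 of the 35 then stayed above zero. The median of the 35 lay 0.16 above that of all genes under both scalings. Under that scaling 33.2% of all calls were higher, against 44.8% with the main scaling, and Psmd1 and Psmd8 alone among the proteasome genes were called higher. The counts of all 49 genes added up to 3580, 4232 and 3844 CPM in controls 1 to 3 and to 4316, 4708, 4684 and 4463 CPM in knockouts 1 to 4. Each knockout lay above each control in this sum, and the mean was 1.17-fold higher. Control 1 was the lowest library, and without it the median log2 fold change of the 35 was 0.10 and no proteasome gene was called in either direction. Leaving out knockout 3 also ended all 7 calls, and leaving out control 3 ended the 5 higher ones. Over all genes, calls numbered 1998 in the main fit, 830 without control 1, 952 without knockout 3 and 793 without control 3.

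**Figure D1:**
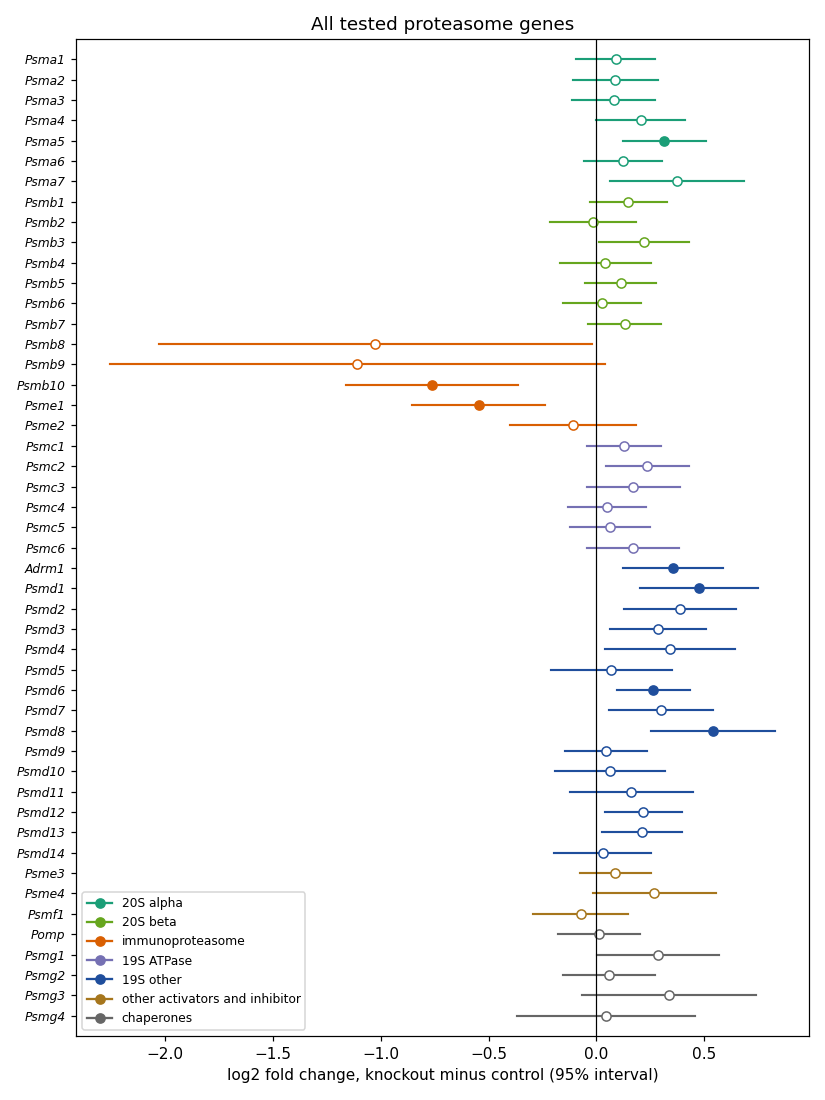
The log2 fold change of each of the 48 tested proteasome genes (horizontal axis, knockout minus control, bars giving the 95% interval), grouped by the part of the complex. Filled markers passed the test at an adjusted p under 0.05; all 15 non-ATPase genes of the cap lie above zero and all 5 immunoproteasome genes lie below it.

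The 20S core changed little. The alpha genes form the outer rings, through which substrates enter. Psma5 had 45.0, 50.6 and 47.4 CPM in controls 1 to 3 and 56.5, 56.9, 66.04 and 57.6 CPM in knockouts 1 to 4. The groups did not overlap, and knockout 3 was set apart above the others. Its mean was 47.7 ± 2.84 CPM in the controls and 59.2 ± 4.56 CPM in the knockouts (log2 fold change 0.31, SE 0.0852, 95% interval 0.12 to 0.51, adjusted p = 0.0401). The call was kept when knockout 2 was left out and was lost when any other single library was left out (adjusted p = 0.0503 to 0.153), and also with upper quartile scaling or no filter on low counts. The table's read counting is not stated to use strand, and Psma5 (chr3:108256926-108279974, plus strand, mm10) overlaps the annotated gene 1700010K24Rik.

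The other alpha genes, Psma1, Psma2, Psma3, Psma4, Psma6 and Psma7, had log2 fold changes from 0.08 to 0.37 and none was called. The largest of these belonged to Psma7, with 53.6 ± 7.48 CPM in the controls and 69.5 ± 11.3 CPM in the knockouts (log2 fold change 0.37, adjusted p = 0.103). For Psma4 the values were 67.1 ± 7.86 and 77.4 ± 3.80 CPM (0.21, adjusted p = 0.158), for Psma6 100.1 ± 7.53 and 109.1 ± 6.10 CPM (0.12, adjusted p = 0.322), and for Psma1 51.5 ± 2.29 and 54.8 ± 3.89 CPM (0.09, adjusted p = 0.483). Psma8, an alpha gene used in the testis, had 1 count in knockout 1 and was listed at 0 in the other 6 libraries, so it was not tested.

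The beta genes form the inner rings, where Psmb6, Psmb7 and Psmb5 carry the caspase-like, trypsin-like and chymotrypsin-like cutting sites. None of the 7 was called, and their log2 fold changes ran from -0.02 for Psmb2 to 0.22 for Psmb3. Psmb3 had 59.7, 75.3 and 70.0 CPM in the controls and 78.0, 85.7, 76.8 and 77.9 CPM in the knockouts; it was the one beta gene whose groups did not overlap (adjusted p = 0.140). Psmb1 had a log2 fold change of 0.15 (adjusted p = 0.235) and Psmb4 of 0.04 (adjusted p = 0.797).

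The cutting subunits themselves were nearly level. Psmb5 had 87.5, 100.9 and 92.1 CPM in the controls and 102.4, 102.2, 97.4 and 102.3 CPM in the knockouts (log2 fold change 0.11, 95% interval -0.05 to 0.28, adjusted p = 0.324). Psmb7 had 157, 179 and 162 CPM in the controls and 187, 190.3, 176 and 175 CPM in the knockouts (0.13, -0.04 to 0.30, adjusted p = 0.269). Psmb6 had 81.3, 96.2 and 86.9 CPM in the controls and 87.7, 90.4, 86.2 and 94.7 CPM in the knockouts (0.03, -0.15 to 0.21, adjusted p = 0.854). For all 3 the control 2 value reached or passed the knockout range, and the 3 intervals ran no lower than -0.15 and no higher than 0.30. Per kilobase of transcript, the control level was 143 ± 9.78 CPM for Psmb7, 110.5 ± 9.44 CPM for Psmb6 and 104.0 ± 7.56 CPM for Psmb5; the last 2 did not differ beyond their spread.

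The 6 ATPases of the cap, Psmc1 to Psmc6, unfold the substrate and push it into the core. All 6 had log2 fold changes above zero, between 0.05 and 0.24, and none was called. Psmc2 had the smallest p and was the one ATPase gene with separated groups, at 94.6, 117 and 105.0 CPM in the controls and 120.2, 129, 127 and 122 CPM in the knockouts (log2 fold change 0.24, adjusted p = 0.0940). The next 3 by p were Psmc6, at 96.9 ± 8.61 and 109.0 ± 9.39 CPM (0.17, adjusted p = 0.254), Psmc3, at 204 ± 18.6 and 230.1 ± 19.7 CPM (0.17, adjusted p = 0.256), and Psmc1, at 128 ± 8.79 and 139 ± 6.05 CPM (0.13, adjusted p = 0.279). Psmc4 and Psmc5 had log2 fold changes of 0.05 and 0.06.

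The 15 non-ATPase genes include ubiquitin receptors, a deubiquitinase, scaffold and lid subunits and assembly chaperones. For 8 of these 15 genes every knockout lay above every control (53.3%, against the 14.0% of all genes above), and their median log2 fold change was 0.26. Psmd8 encodes a lid subunit that completes the assembly of the lid. It had 179.8, 255 and 212 CPM in controls 1 to 3 and 333, 271, 331 and 323 CPM in knockouts 1 to 4. The groups did not overlap, although control 2 and knockout 2 were close to each other. The mean went from 216 ± 37.7 to 314 ± 29.4 CPM (log2 fold change 0.54, SE 0.127, 95% interval 0.26 to 0.83, adjusted p = 0.0253). Leaving out control 2 or knockout 2 kept the call, and leaving out any of the other 5 libraries ended it (adjusted p = 0.0514 to 0.0862). Psmd8 lies at chr7:29174188-29180701 on the minus strand.

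Psmd1 and Psmd2 encode the large scaffold subunits at the base of the cap, where Psmd1 docks the ubiquitin receptor Adrm1 and Psmd2 binds shuttle proteins. Psmd1 (chr1:86064387-86139151, plus strand) had 172, 189.9 and 194 CPM in the controls and 217, 291, 291 and 231 CPM in the knockouts. Knockouts 2 and 3 were higher than knockouts 1 and 4, and all 4 exceeded the controls. Its mean went from 185 ± 11.7 to 257 ± 39.0 CPM (log2 fold change 0.48, SE 0.121, adjusted p = 0.0322), a call that was lost when control 1, control 2, control 3 or knockout 3 was left out (adjusted p = 0.0753 to 0.122). Psmd1 overlaps the annotated genes Gm21972 and Htr2b. Psmd2 had 251, 326 and 269 CPM in the controls and 323, 408, 385 and 358 CPM in the knockouts, so that control 2 lay above knockout 1. It fell just outside the threshold (log2 fold change 0.39, SE 0.115, adjusted p = 0.0529), and DESeq2 called it (adjusted p = 0.0204).

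Adrm1 and Psmd4 encode ubiquitin receptors of the cap. Adrm1 (chr2:180171485-180176286, plus strand) had 84.3, 110.4 and 93.8 CPM in the controls and 115, 117, 127 and 132 CPM in the knockouts. The knockouts were close together and above the controls, of which control 2 was the highest. The mean went from 96.2 ± 13.2 to 123 ± 8.24 CPM (log2 fold change 0.35, SE 0.103, adjusted p = 0.0488), and the call survived the loss of control 2 alone (adjusted p = 0.0513 to 0.178 without any other library). It was also lost with RLE size factors, with upper quartile scaling, with no filter on low counts and with the older form of the test. Psmd4 had 131 ± 17.8 and 166 ± 24.1 CPM (0.34, adjusted p = 0.120).

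Psmd6, a lid subunit (chr14:14112174-14120984, minus strand), had 120.3, 126 and 126 CPM in the controls and 149, 156, 156 and 136 CPM in the knockouts. The controls were tightly grouped, and knockout 4 was the nearest to them. The mean went from 124 ± 3.51 to 149 ± 9.31 CPM (log2 fold change 0.26, SE 0.0747, adjusted p = 0.0458); the call held without knockout 4 and ended without any of the others (adjusted p = 0.0715 to 0.165), and also with upper quartile scaling, with no filter and with the older form of the test. Of the lid subunits that were not called, Psmd3 (100.04 ± 9.12 and 122 ± 11.3 CPM, log2 fold change 0.29, adjusted p = 0.0816), Psmd7 (123 ± 15.3 and 151 ± 13.5 CPM, 0.30, adjusted p = 0.0928) and Psmd12 (106 ± 8.63 and 123 ± 4.80 CPM, 0.22, adjusted p = 0.0953) came nearest, each with separated groups. Psmd13 also had separated groups (0.21, adjusted p = 0.118), whereas Psmd11 (0.16) and Psmd14 (0.03), the deubiquitinase of the lid, did not.

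The same numbering covers Psmd5, Psmd9 and Psmd10, which encode chaperones that assemble the ATPase ring and leave the finished cap. They had log2 fold changes of 0.07, 0.04 and 0.06, and none was called. Per kilobase of transcript their control levels, 3.63, 6.10 and 5.73 CPM, lay below those of the other 12 non-ATPase genes, which ran from 29.5 CPM for Psmd13 to 140.1 CPM for Psmd8.

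**Figure D2:**
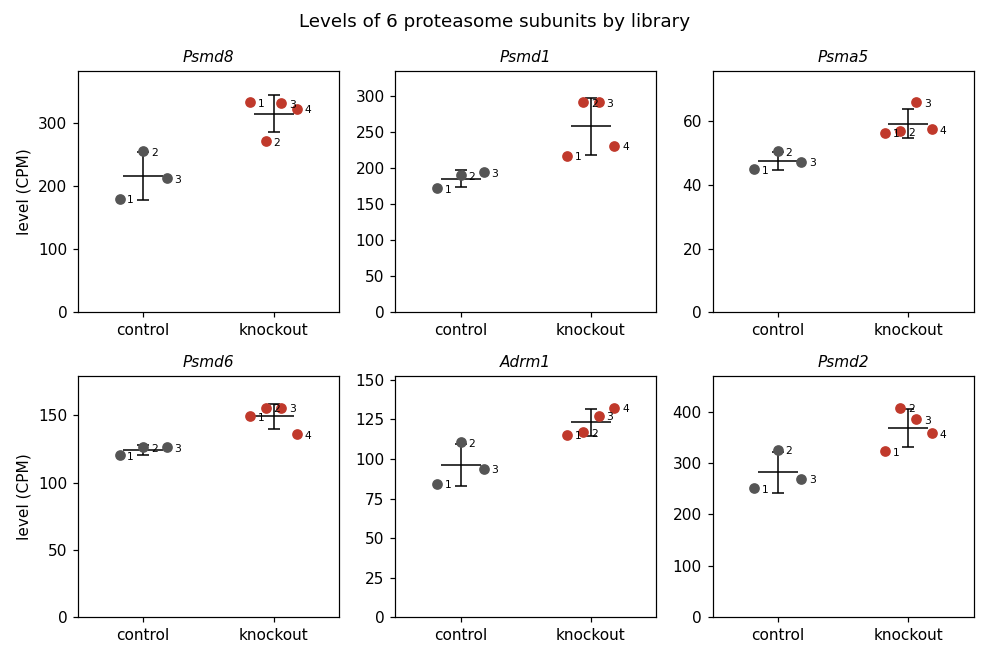
Levels in CPM (vertical axes, starting at 0) of the 5 core and cap genes called higher and of Psmd2, which just missed the threshold; each point is a library with its replicate number, and the lines give the mean ± SD of 3 controls and 4 knockouts. Control 2 is the highest control for Psmd8, Psma5, Adrm1 and Psmd2.

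Slow-fibre markers lay lower in the knockouts. All 6 had groups that did not overlap (14.8% of all genes lay lower in this way). Atp2a2, 1 of the 6, was called lower (8.23% of all genes were). The summed level of 6 slow-fibre markers was between 1516 and 1724 CPM in the controls, 588 and 597 CPM in knockouts 1 and 4 and 75.9 and 57.0 CPM in knockouts 2 and 3. The median non-ATPase gene, as a log2 level against the control mean, was 0.19 and 0.14 in knockouts 1 and 4 and 0.31 and 0.32 in knockouts 2 and 3. In knockouts 1 to 4 the median ATPase gene was 0.08, 0.11, 0.21 and 0.14. The median alpha gene was 0.15, 0.23, 0.17 and 0.07, and the median beta gene 0.10, 0.17, 0.06 and 0.09. Psmd8 had 333, 271, 331 and 323 CPM in the same 4 knockouts. The part of the slow-fibre genes in the cap genes' levels was not tested.

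None of the 5 assembly factors of the core was called. Pomp, which guides the beta ring together, was 50.3 ± 0.819 CPM in the controls and 50.8 ± 4.52 CPM in the knockouts (log2 fold change 0.01, adjusted p = 0.930), with knockout 1 at 57.5 CPM above the rest. The alpha-ring chaperones Psmg1 and Psmg2 had log2 fold changes of 0.29 (5.26 ± 0.541 and 6.42 ± 0.449 CPM, adjusted p = 0.152) and 0.06 (13.2 ± 0.801 and 13.8 ± 0.838 CPM, adjusted p = 0.700). Psmg3 and Psmg4, which act as a pair, had 0.34 (3.55 ± 0.722 and 4.49 ± 0.553 CPM, adjusted p = 0.233) and 0.05 (1.97 ± 0.204 and 2.03 ± 0.296 CPM). Psmg1 alone of the 5 had separated groups.

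The activators that interferon does not govern were not called in the main fit either. Psme4, a large nuclear activator, had 218, 226 and 249 CPM in the controls and 214, 296, 299 and 304 CPM in the knockouts (log2 fold change 0.27, adjusted p = 0.180). Knockout 1 was the lowest of the 7 libraries and the other 3 knockouts lay above the controls. With knockout 1 left out, Psme4 was called higher (log2 fold change 0.37, adjusted p = 0.0253), and no other fit called it. Psme3, a nuclear activator of the same family as Psme1, was 56.7 ± 3.46 and 60.3 ± 1.99 CPM (0.09, adjusted p = 0.444), and the inhibitor Psmf1 was 16.0 ± 1.31 and 15.2 ± 0.970 CPM (-0.07, adjusted p = 0.646). Psmf1 was the one member with counts that were not whole, which can mark reads shared with another gene.

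The immunoproteasome genes were scarce and lay lower in the knockouts. Per kilobase of transcript, the control levels were 3.33 ± 2.70 CPM for Psmb8, 1.27 ± 0.988 CPM for Psmb9 and 5.86 ± 1.43 CPM for Psmb10, far below those of Psmb5, Psmb6 and Psmb7, which they replace. All 5 genes had log2 fold changes below zero, with a median of -0.76, and without control 1 the median was -0.27 and 1 of the 5 lay above zero. The 2 called lower each had separated groups. In bulk muscle, fewer cells that carry these RNAs and less RNA per cell cannot be told apart.

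Psmb10, the trypsin-like form (chr8:105935735-105938444, minus strand), had 9.81, 6.94 and 6.30 CPM in controls 1 to 3 and 5.01, 4.79, 3.82 and 4.47 CPM in knockouts 1 to 4. Control 1 was the highest library, and the other controls were still above every knockout. The mean went from 7.68 ± 1.87 to 4.52 ± 0.516 CPM (log2 fold change -0.76, SE 0.176, 95% interval -1.16 to -0.36, adjusted p = 0.0242). The call ended without control 1 (log2 fold change -0.55, adjusted p = 0.0716), knockout 3 (adjusted p = 0.0649) or knockout 4 (adjusted p = 0.0562).

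Psme1 and Psme2 encode the subunits of the interferon-inducible activator that opens the core. Psme1 (chr14:55578123-55581529, plus strand, overlapping Emc9) had 21.2, 18.7 and 14.8 CPM in the controls and 11.97, 12.8, 11.2 and 14.0 CPM in the knockouts. The groups did not overlap, and control 3 and knockout 4 were the closest pair. The mean went from 18.2 ± 3.22 to 12.5 ± 1.23 CPM (log2 fold change -0.55, SE 0.136, adjusted p = 0.0302); the call ended without control 1 (log2 fold change -0.43, adjusted p = 0.107), control 2 (0.0830), knockout 1 (0.0582) or knockout 3 (0.0789). Its partner Psme2 had 16.1, 13.4 and 10.97 CPM in the controls and 12.2, 12.6, 13.1 and 12.2 CPM in the knockouts, with a log2 fold change of -0.11 (95% interval -0.40 to 0.19, adjusted p = 0.604) and overlapping groups. Without control 1 the log2 fold change of Psme2 was 0.03.

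Psmb8 and Psmb9, which replace Psmb5 and Psmb6, had the largest fold changes of the 5 and were not called. Psmb8 (chr17:34197721-34201454, plus strand, overlapping Gm20496) had 10.5, 3.11 and 2.67 CPM in the controls and 2.32, 2.89, 2.23 and 3.18 CPM in the knockouts (log2 fold change -1.02, SE 0.445, adjusted p = 0.151). Psmb9 (chr17:34181987-34187764, minus strand, overlapping Tap1) had 3.26, 0.958 and 0.927 CPM in the controls and 1.197, 0.799, 0.438 and 0.685 CPM in the knockouts (-1.11, SE 0.508, adjusted p = 0.171). In both genes control 1 was more than 3 times as high as either of the other controls, and the other controls lay within the knockout range. Without control 1 the log2 fold changes were -0.13 for Psmb8 (adjusted p = 0.751) and -0.27 for Psmb9 (adjusted p = 0.709).

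**Figure D3:**
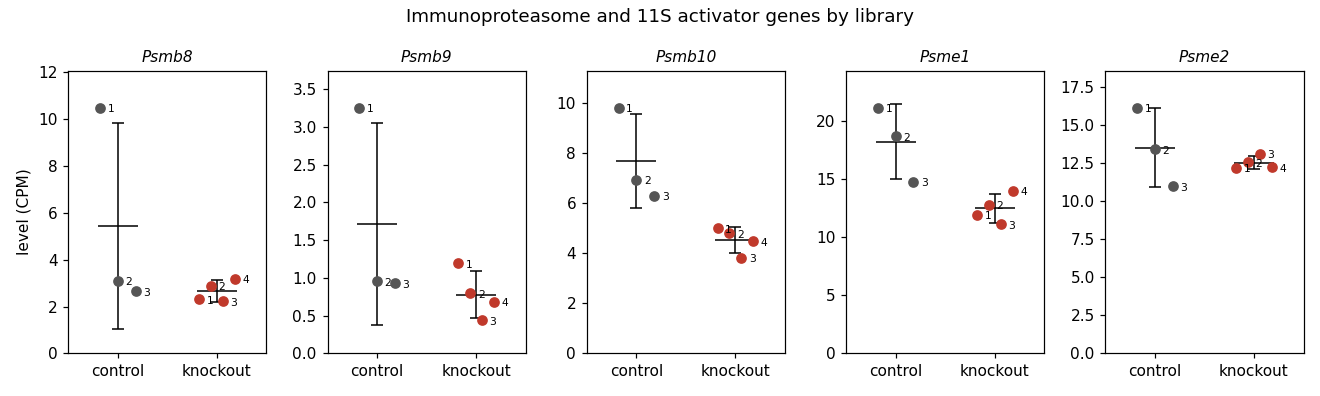
Levels in CPM of the 5 immunoproteasome genes in each library, with replicate numbers and the mean ± SD of 3 controls and 4 knockouts. Control 1 is the highest library in every panel, at 10.5 CPM for Psmb8 and 9.81 CPM for Psmb10.

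Each immunoproteasome subunit was also set against the subunit it replaces within the same library, which removes the scaling between libraries. The counts of Psmb10 were 6.25, 3.89 and 3.89% of those of Psmb7 in the controls and 2.69, 2.53, 2.18 and 2.57% in the knockouts. No knockout reached the lowest control. The difference in the log2 ratio was -0.87, with p = 0.0286 in a two-sided exact permutation test over the 7 libraries, the smallest value this design can give, and 0.0857 after adjustment over the 3 ratios tested. Psmb8 counts were 12.01, 3.10 and 2.92% of those of Psmb5 in the controls and 2.29, 2.85, 2.31 and 3.13% in the knockouts (difference -0.86, exact permutation p = 0.0857, adjusted 0.129). Psmb9 counts were 4.03, 1.02 and 1.09% of those of Psmb6 in the controls and 1.39, 0.905, 0.531 and 0.745% in the knockouts (-0.97, exact permutation p = 0.200, adjusted 0.200). Without control 1 the differences were -0.65 for Psmb10, -0.20 for Psmb8 and -0.33 for Psmb9, and no test could reach 0.05 with 2 controls. These are ratios of counts, not corrected for transcript length, and are compared between libraries only.

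**Figure D4:**
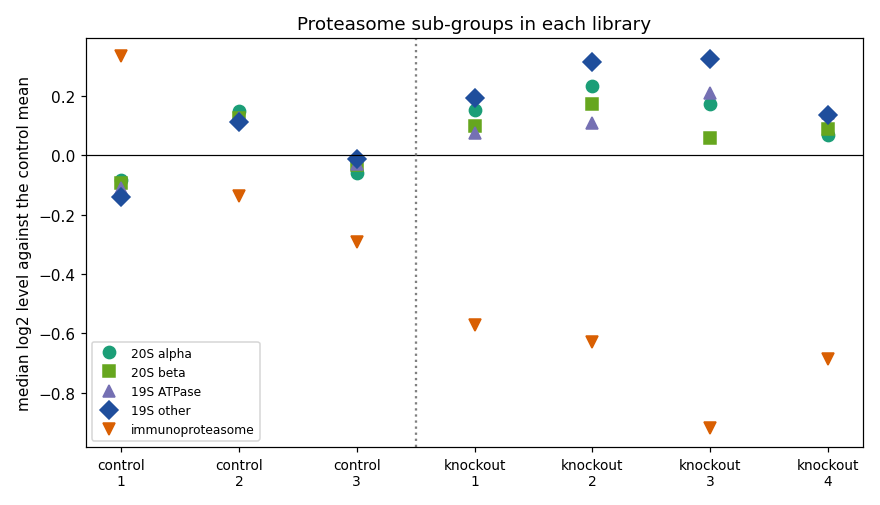
The median log2 level of each group of proteasome genes in each library, against the mean of the controls (vertical axis), for 3 controls and 4 knockouts. The immunoproteasome median is 0.33 in control 1, -0.14 and -0.29 in controls 2 and 3 and between -0.57 and -0.92 in the knockouts. The non-ATPase median of the cap is between 0.14 and 0.32 in the knockouts.

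Of 28 genes of antigen presentation and the interferon response, 19 had their highest level of the 7 libraries in control 1, and in 3 control 1 was the lowest control. The test called 3 of the 28 lower (10.7%), close to the 8.23% of all genes, and none higher (6.67% of all genes); 6 had a log2 fold change above zero, and the median was -0.27. The guanylate-binding protein genes Gbp3 (31.1, 5.79 and 3.28 CPM in controls 1 to 3, and 1.55 to 3.30 CPM in the knockouts, log2 fold change -2.55, adjusted p = 0.0400) and Gbp2 (51.1, 9.35 and 4.71 CPM, and 3.56 to 5.59 CPM, -2.38, adjusted p = 0.0479) were highest in control 1. Ube2l6, which attaches the ubiquitin-like protein ISG15, had a log2 fold change of -1.08 (adjusted p = 0.0450). Without control 1 none of the 28 was called, and the log2 fold changes were -0.999 for Gbp3, -0.76 for Gbp2 and -0.87 for Ube2l6. Without control 3, 5 were called lower. None was called when any one of the 4 knockouts was left out, either. Over all genes, 1103 were called lower in the main fit, 528 without control 1 and 535 without control 3. Without knockouts 1 to 4 they numbered 923, 1091, 570 and 702. At an unadjusted p under 0.05, edgeR gave 1 of the 28 as higher and 11 as lower. Of all 13409 genes, it gave 2058 and 2204. DESeq2 called 0 of the 28 higher and 7 lower, and 1109 and 1189 of the 21487 genes in the table.

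Markers of cell types other than muscle fibres had lower mean sums in the knockouts. The summed level of 14 leukocyte markers was 64.2, 42.7 and 70.4 CPM in the controls and 31.1, 34.3, 24.4 and 23.9 CPM in the knockouts. Of the 9 that could be tested, Csf1r, Lyz2 and Cd68 were called lower (8.23% of all genes were) and none higher. The lymphocyte markers Cd3e, Cd79a and Ms4a1 had at most 3 counts in any library. Control 1 also had 118 CPM of 3 Schwann cell markers, against 27.2 and 33.3 CPM in the other controls and 16.6 to 25.1 CPM in the knockouts. Smooth muscle markers summed to 75.7 to 89.0 CPM in the controls and 58.4 to 67.1 CPM in the knockouts (2 of 3 called lower), and endothelial markers to 174 to 218 CPM and 148 to 166 CPM (none of 5 called). Fibroblast markers summed to 260 to 540 CPM and 186 to 282 CPM, with 3 of 5 called lower and overlapping sums. Their part in the immunoproteasome levels was not tested.

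Genes that supply or regulate the proteasome were also called. Their list was chosen with earlier results of these data known, so its share of calls is a description only. Of 29 genes for ubiquitin, its shuttles, proteasome-bound enzymes and regulators, 10 were called higher (34.5%, where 6.67% of all genes were) and none lower (8.23% of all genes), and the median log2 fold change was 0.24. The higher count was 13 with DESeq2, 6 with upper quartile scaling, 2, 4 and 3 without controls 1, 2 and 3 and 5 and 6 without knockouts 3 and 4. DESeq2 called 0 of the 29 lower. Over all genes, the higher count was 895 in the main fit, 1109 with DESeq2 and 644 with upper quartile scaling. Without controls 1, 2 and 3 it was 302, 381 and 258, and without knockouts 3 and 4 it was 382 and 551. Control 1 was the lowest control in 21 of the 29 genes and the highest control in 4. At an unadjusted p under 0.05, edgeR gave 15 of the 29 as higher and 0 as lower. Faf1, which brings ubiquitinated proteins to the segregase VCP, had 77.6, 78.8 and 74.6 CPM in the controls and 104, 118, 124 and 109 CPM in the knockouts (log2 fold change 0.56, adjusted p = 0.00590). Nploc4, a cofactor of VCP, had 93.4, 106 and 113 CPM in the controls and 145, 156, 183 and 145 CPM in the knockouts (0.59, adjusted p = 0.0103). For both genes the groups were well apart, and the call held without each library in turn. The polyubiquitin gene Ubb went from 845 ± 72.5 to 1223 ± 87.0 CPM (0.53, adjusted p = 0.0117, and 0.0531 without control 1). Zfand5, a proteasome-binding activator, went from 327 ± 25.1 to 470.4 ± 62.5 CPM (0.52, adjusted p = 0.0197, and 0.0833 without control 1 and 0.0604 without control 3).

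The other 6 called were the proteasome-bound deubiquitinase Usp14 (log2 fold change 0.42), AI314180, listed by RefSeq as the proteasome adaptor Ecpas (0.42), the shuttles Rad23b (0.38) and Ubqln1 (0.26), the segregase Vcp (0.33) and Midn (0.32), which carries nuclear proteins to the proteasome, with adjusted p between 0.0216 and 0.0486. AI314180, Vcp and Midn kept the call in 1 of the 7 fits that left out a library, the one without knockout 1, and Ubqln1 kept it only without knockout 2. Rad23b lost it without any 1 control or knockout 3 (adjusted p = 0.0570 to 0.0969), and Usp14 without any 1 control (0.0521 to 0.0844). Upper quartile scaling ended the calls of AI314180, Ubqln1, Vcp and Midn, having no filter those of AI314180, Ubqln1 and Midn, and RLE scaling and the older form of the test that of AI314180. Rps27a, which encodes ubiquitin fused to a ribosomal protein, had -0.06 and was not called. Nfe2l1, the factor that raises proteasome genes when the proteasome is blocked, had a log2 fold change of -0.03 (adjusted p = 0.867), and Nfe2l2, the oxidative-stress factor, 0.24 (adjusted p = 0.341). Shfm1, a cap subunit outside the naming rule, had 0.08 (adjusted p = 0.552).

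**Figure D5:**
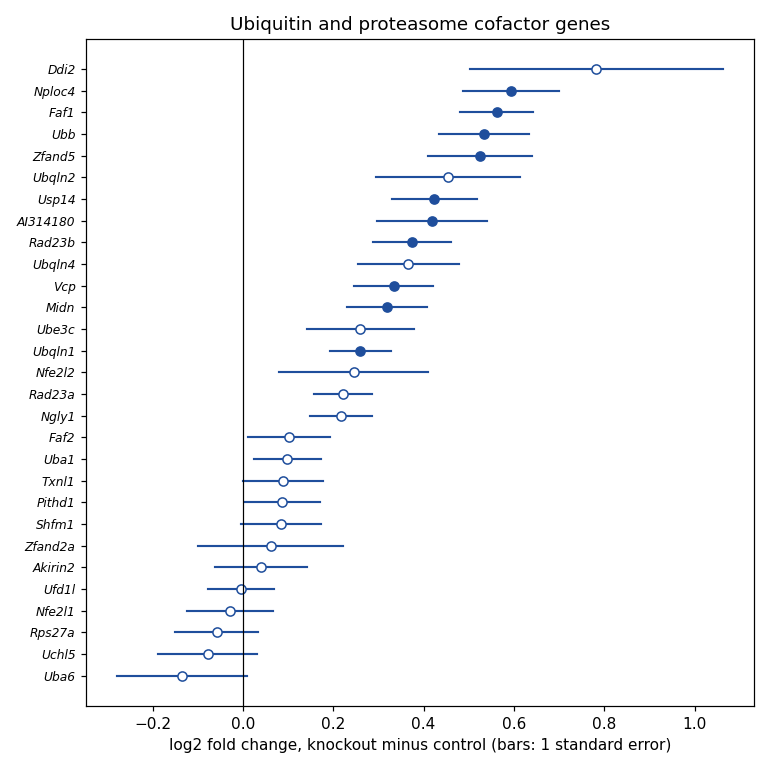
The log2 fold change (horizontal axis, knockout minus control, bars of 1 standard error) of 29 ubiquitin and proteasome cofactor genes. Filled markers passed the test; the 10 filled genes run from 0.26 for Ubqln1 to 0.59 for Nploc4.

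Since cap genes lay higher and immunoproteasome genes lower, the RefSeq promoters (GRCm38.p6, 250 bases before to 50 after the start) were searched on both strands for 2 motifs. TGANNNNGC is the core of the antioxidant response element, to which Nfe2l1 and Nfe2l2 can bind, and GAAANNGAA is a core of the interferon-stimulated response element. Of the 49 genes, 41 had a promoter in the table. The first motif was in 23 of the 41 (56.1%), against 45.0% of 27025 genes and 41.3% of all 32851 promoters. The second was in 8 of the 41 (19.5%), against 9.76% of genes and 8.56% of promoters. In the 5 immunoproteasome genes, the first was found in 3 and the second in 1. The 2 motifs can share bases, as they do in Psmg4, and a match is a description of the sequence only.

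Called genes with a match before a RefSeq start are shown with the motif in capitals, 5′ to 3′ along the gene's strand. Psmb9 is added for the immunoproteasome. The marked motifs of Psmd1 and Psmb9 lie within the gene positions given above, which have another start. Adrm1 is chr2:180171390-180171469 (plus), Psmd1 is chr1:86064369-86064438 (plus) and Psmb9 is chr17:34187347-34187426 (minus).
Adrm1: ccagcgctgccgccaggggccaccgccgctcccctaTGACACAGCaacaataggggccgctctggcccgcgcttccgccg
Psmd1: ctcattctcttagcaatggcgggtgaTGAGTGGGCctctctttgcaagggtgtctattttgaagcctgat
Psmb9: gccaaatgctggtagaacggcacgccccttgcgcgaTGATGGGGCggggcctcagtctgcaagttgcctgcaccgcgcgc
Adrm1 and Psmd1 were called higher and Psmb9 was not called. In Psma5 and Psmd8 the first motif lay after the start, on the opposite strand, as GCGTGCTCA and GCATGTTCA. Psme1 held the interferon core after the start as TTCGCTTTC. Neither motif was found in the windows of Psmd6 and Psmb10.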

How the data were processed

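RNA was measured in 7 gastrocnemius libraries (3 control, 4 knockout), grouped by the genotype in the titles. Per the submitters' processing notes, the authors aligned reads to mm10 with STAR 2.7.10a, counted with RSEM 1.2.28 and tested with DESeq2 (given as 1.3.40); per the labels, reads were 150 bp pairs at an intended 30 M per sample. The deposited values are RSEM expected counts per gene symbol, which were rounded to whole numbers here. The sources used here do not name the annotation or the strand. Positions and lengths came from GENCODE M21 (GRCm38), to which all 49 symbols matched.

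All genes were fitted together, knockout minus control, in edgeR 4.0.16 on R 4.3.3 (TMM scaling, filterByExpr, quasi-likelihood F test, Benjamini-Hochberg adjustment over 13409 genes). A standard error is the log2 fold change divided by the square root of F. Levels in each library against the control mean used log2(CPM + 0.5), and ratios of 2 genes used counts + 0.5 and two-sided exact permutation tests. The fit was tested on simulated counts. Every member is named. Values in every library are given for called members, immunoproteasome genes and their partners; means are given for up to 4 other members of a group by smallest p; and from the other lists, up to 4 called genes by smallest p. Further genes were named after their values were seen. Members and lists were chosen with earlier results of these data known. Replicates of a group differed beyond sampling noise. Alternatives were a minimum mean count of 10, no filter, upper quartile and RLE scaling, DESeq2 1.42.0, a replicate block, leaving out each library, no ratio offset and, chosen after seeing the data, edgeR's older quasi-likelihood estimate. No sample was left out; a few genes of the other lists are not reported here and were taken out of the lists' counts.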

Additional observations from a re-analysis of the deposited data

Results flagged for a closer look

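A library was singled out where the gap to its nearest neighbour took up most of the range of the 4 knockouts (Dixon's test at 95%); groups of 3 were not tested. Chance gives about 1 in 20 such cases, and 7 were found among the 68 values looked at. Knockout 1 was set apart for Pomp (57.5 CPM, against 47.7 to 49.2 in the other knockouts) and for Psme4 (214 CPM, against 296 to 304). Knockout 2 was set apart for Psmb3 (85.7 CPM, against 76.8 to 78.0) and for Psmd8 (271 CPM, against 323 to 333). Knockout 3 was set apart for Psma5 (66.04 CPM, against 56.5 to 57.6), for Psmb5 (97.4 CPM, against 102.2 to 102.4) and for Ubqln1 (95.3 CPM, against 86.6 to 88.1).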

How the results depend on the processing

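Of 910 values of 65 named genes under the alternatives, 770 kept their direction and side of the threshold, 112 lost a call, 8 gained one and 20 changed sign. Proteasome genes called higher numbered 2 with upper quartile scaling, 2 with no filter and 3 with the older edgeR estimate (chosen after seeing the data), and 0 to 3 when single libraries were left out. Those called lower numbered 0 to 2 when single libraries were left out. Cofactor genes called higher numbered 6 with upper quartile scaling and 2 to 11 with single libraries left out. Antigen presentation and interferon genes called lower numbered 7 with DESeq2, 1 with the replicate block and 0 to 5 with single libraries left out. Over all genes, leaving out single libraries gave 258 to 966 called higher and 528 to 1091 called lower. The main fit gave 895 higher, upper quartile scaling 644, no filter 686 and the older edgeR estimate 879. DESeq2 called 1189 genes lower, against 1103 in the main fit. The 3 ratios kept their direction under every alternative run.

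With upper quartile scaling the log2 fold change turned to -0.0354 for Pomp, -0.0074 for Psmb4, -0.0228 for Psmb6, -0.01995 for Psmd14, -0.0047 for Psmd9 and -0.0031 for Psmg4. Leaving out single libraries gave log2 fold changes of -0.055 to 0.043 for Pomp, -0.068 to 0.088 for Psmb2, -0.0062 to 0.12 for Psmb4, -0.036 to 0.095 for Psmb6, -0.0024 to 0.12 for Psmd10, -0.044 to 0.16 for Psmd14, -0.024 to 0.15 for Psmd5, -0.24 to 0.033 for Psme2, -0.051 to 0.13 for Psmg4 and -0.11 to 0.042 for Nfe2l1. None of these genes was called in any setting. The cause of these changes was not tested.

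Replicate numbers 1 to 3 occur in both groups. The deviations of same-numbered libraries correlated at 0.0945, 0.134 and 0.0854 over genes, so the numbers were not taken to pair the libraries; each of those libraries correlated best with its own number, a hint from the data and not the design. A replicate block gave 577 genes higher and 696 lower. It called 5 proteasome genes higher (Psma7, Psmd1, Psmd2, Psmd4 and Psmd7), of which Psmd1 is shared with the fit without it, and the same 2 lower. Of the members tested, Psmb9 had the fewest counts, with 11 to 81 counts in a library.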
